A study of Mus musculus with 8 samples.

Results

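Integrins, laminins and the other genes of the basement membrane were examined as a set of 36 genes in the intestine of newborn mice with and without claudin-7, a tight junction protein of epithelium that is also found along the sides of epithelial cells. Members were taken by name, from a list chosen with earlier results of these data known. Of the 55681 non-control probes on the arrays, 51 carried 1 of the 36 names, and all 36 genes were found among 25327 named genes. The 4 groups were Cldn7 knockout (KO) small intestine, wild-type (WT) small intestine, KO large intestine and WT large intestine, each with 2 one-colour arrays numbered replicate 2 and replicate 3. All pups were of strain 129SV, were 3 days old and had no treatment, and the knockout was made by gene targeting. Each array held total RNA of a 2 cm intestinal fragment, so epithelium, muscle, nerves and vessels share a sample. In such bulk RNA, fewer cells of a type and less RNA per cell cannot be told apart. The labels do not say whether the arrays of a group came from separate pups, nor whether both segments of a number came from the same pup, so p-values measure only the spread between these samples.

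As background, an integrin is a receptor made of an alpha and a beta chain that ties a cell to the matrix outside it and, through talin and kindlin, to the actin cytoskeleton inside. Laminins are trimers of an alpha, a beta and a gamma chain that form the first sheet of a basement membrane. Collagen IV forms a second network, and nidogens and perlecan (Hspg2) join both. In gut the epithelium sits on a basement membrane laid down by epithelial cells and by the fibroblasts beneath them, and smooth muscle cells, nerves and vessels each have a basement membrane of their own. The integrin of Itga6 and Itgb4 anchors epithelial cells to an epithelial laminin, which holds Lama3 and Lamb3, in hemidesmosomes, with the tetraspanin Cd151 as its partner.

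The members were set apart by where textbook knowledge places them, with earlier results of these data known. The epithelial group had 8 genes (Itga2, Itga3, Itga6, Itgb4, Itgb6, Lama3, Lamb3 and Cd151). The wall-type group, known mainly from smooth muscle, fibroblasts, vessels and nerve, had 14 (Itga1, Itga5, Itga7, Itga8, Itga9, Itga11, Itgb3, Lama2, Lama4, Col4a1, Col4a2, Nid1, Nid2 and Hspg2). The remaining 14 belong to both or are not settled (Itgav, Itgb1, Itgb5, Itgb8, Lama1, Lama5, Lamb2, Lamc1, Col4a3, Col4a4, Col4a5, Col4a6, Agrn and Dag1). A level below is log2 of the scanner's processed signal relative to the array's 75th percentile, and a difference is KO minus WT or large minus small on that log2 scale. A gene passed at a Benjamini-Hochberg adjusted p under 0.05 in limma, over 20132 genes, and 34 of the 36 members were bright enough to be tested.

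Cldn7 itself had levels of 2.21 and 0.94 in KO small intestine, against 5.89 and 5.93 in WT small intestine. It had 2.08 and 2.16 in KO large intestine, against 5.70 and 5.56 in WT large intestine. The fall was 20.2-fold in small intestine (limma adjusted p = 0.00803) and 11.4-fold in large intestine (adjusted p = 0.0342), and every KO array lay below every WT array. The call in large intestine was lost when any of its 4 arrays was left out (adjusted p 0.080 to 0.302). Some arrays stood apart in genes outside the set. Both KO arrays numbered 3 had Xist, the RNA of the inactive X chromosome, at -2.42 and -2.43, where the others had -6.25 or less. They had the Y-linked gene Ddx3y at -8.5 and -9.0, where the others had 0.70 to 1.33. No WT array was of this kind, so these sex-linked levels were partly confounded with genotype. Their part in the KO differences was not tested. KO large intestine replicate 2 had the liver gene Alb at 5.23, where every other array had -4.53 or less. The pancreatic gene Amy2a5 was at 2.05 on KO large intestine replicate 3 and at 2.30 on WT large intestine replicate 2, against -3.86 or less elsewhere. The 75th percentile signals of the arrays were 2642.5 to 3571.8, and no member spot was saturated.

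In the small intestine the KO samples had higher levels of most members, led by 2 laminin chains. Lama1, the alpha chain of an early laminin of embryonic and gut basement membranes, rose 4.65-fold, and Lamb2, a beta chain known from vessel, nerve and muscle basement membranes, rose 3.3-fold. These 2 of 34 tested members passed, both higher, where 6.38% of all genes passed higher and 3.51% passed lower. The share of members that passed higher was thus near that of all genes. Differences were above 0 for 27 of 34 members, where 42.8% of all genes were above 0. The median difference was 0.86 over the members and -0.10 over all genes. An unadjusted p under 0.05 was reached by 20 members, against 31.4% of all genes.

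**Figure D1:**
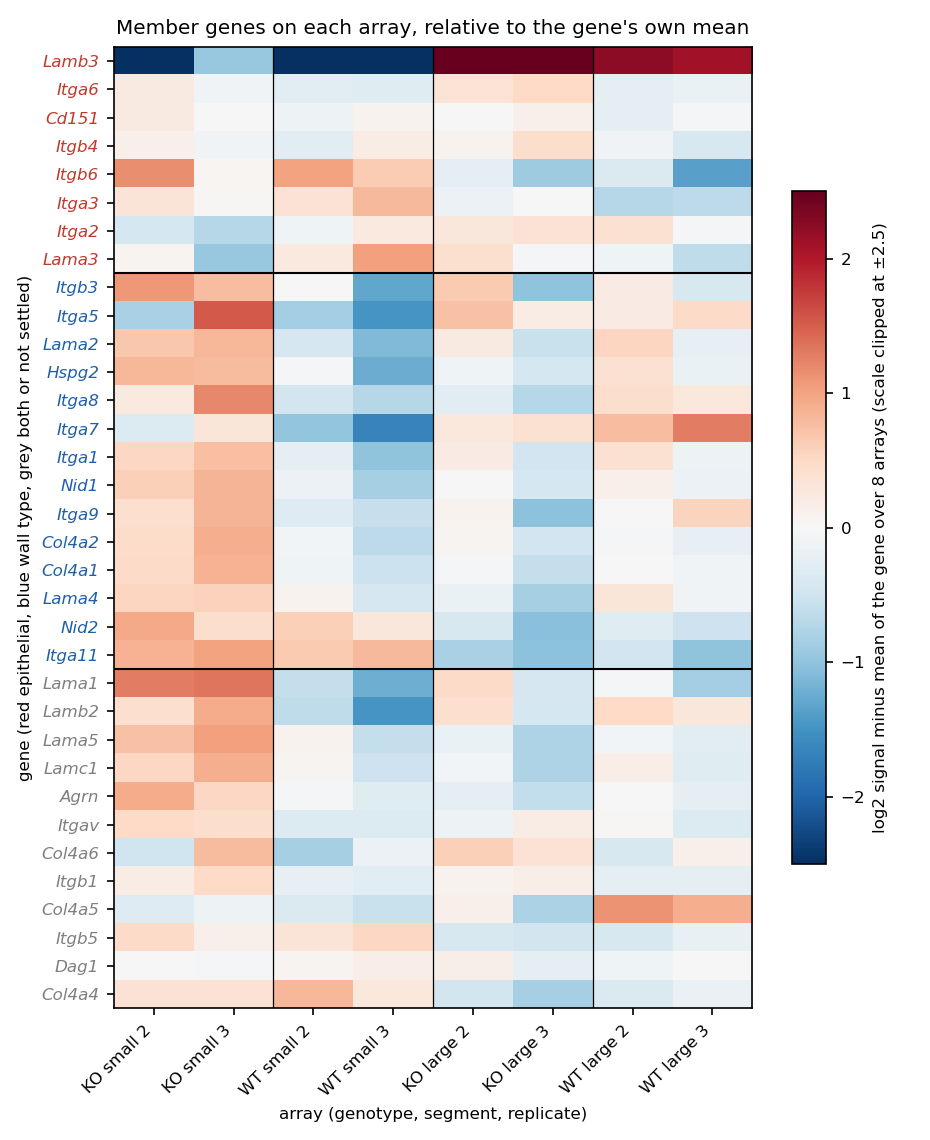
Level of each tested member (rows) on each of the 8 arrays (columns), as log2 signal minus the gene's own mean over the 8 arrays, with colours clipped at 2.5 either side of 0. Wall-type members (blue names) are mostly above their mean on both KO small intestine arrays and below it on both WT small intestine arrays, while Lamb3 (top row) separates large from small intestine.

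Lama1 had levels of 2.33 and 2.39 in KO small intestine, against 0.45 and -0.16 in WT small intestine. The KO arrays lay close together and above both WT arrays, and the difference was 2.22 (SE 0.41, limma adjusted p = 0.0339). Lamb2 had levels of 1.07 and 1.58 in KO small intestine, against 0.02 and -0.82 in WT small intestine. Again the groups did not overlap, and the difference was 1.72 (SE 0.40, adjusted p = 0.0463). Both calls lay near the threshold: over 16 other settings Lama1 passed in 10 (adjusted p 0.0230 to 0.149) and Lamb2 in 7 (0.0359 to 0.200), and neither passed without KO small intestine replicate 3, WT small intestine replicate 3, WT large intestine replicate 2 or WT large intestine replicate 3. Lamb2 also missed without either KO large intestine array.

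The Lamb2 value rests on a single probe of 60 bases at chr9:108392189-108392248 (mm9, plus strand), shown because this laminin chain passed:
Lamb2 probe: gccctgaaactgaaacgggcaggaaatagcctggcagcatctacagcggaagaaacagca

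The wall-type members had the most even pattern in the small intestine. All 14 had higher means in KO than in WT, and for 13 of them both KO arrays lay above both WT arrays, where 26.6% of all genes did so. Their median difference was 1.23, with a range of 0.20 (Itga11) to 1.57 (Itgb3), and none passed (lowest adjusted p 0.0521, for Nid1). At an unadjusted p under 0.05 there were 10 of 14. The range of the median was 0.84 to 1.49 over the settings that left out an array or changed the processing, with 13 or 14 of 14 above 0 in each.

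Nid1, which links laminin to collagen IV, had levels of 4.42 and 4.66 in KO small intestine, against 3.68 and 2.99 in WT small intestine, a difference of 1.21 (SE 0.30). Col4a2, a chain of the common collagen IV, had 3.81 and 4.25 in KO, against 3.28 and 2.70 in WT, a difference of 1.04 (SE 0.30, limma adjusted p = 0.0714). For both genes the lowest KO array was above the highest WT array. Itgb3, the beta chain of a vitronectin and fibronectin receptor, had 2.77 and 2.45 in KO, against 1.69 and 0.37 in WT. Its difference of 1.57 had an SE of 0.63 and an adjusted p of 0.146. Itga5, the alpha chain of the main fibronectin receptor, had -1.53 and 0.81 in KO, against -1.57 and -2.20 in WT. Its KO arrays differed more from each other than KO replicate 2 did from either WT array.

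The other 10 wall-type members were the collagen receptor chains Itga1 and Itga11, the muscle laminin receptor chain Itga7, Itga8 and Itga9, the alpha chains Lama2 and Lama4, Col4a1, Nid2 and Hspg2. Lama2, the laminin alpha chain of muscle and nerve, had levels of 2.09 and 2.25 in KO small intestine, against 0.99 and 0.32 in WT small intestine, and was named after its values were seen. Both KO arrays were above both WT arrays. Its 2 kept probes gave differences of 1.52 and 1.43 in small intestine, and of -0.34 and -0.38 in large intestine.

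Col4a1 and Col4a2, which encode the chains of the common collagen IV trimer, are known to stand head to head. Their start sites lie 21 bases apart in RefSeq's GRCm38.p6 annotation, and the promoter windows of both genes share 78 bases. Their differences were 1.0 and 1.04 in small intestine, and -0.26 and -0.08 in large intestine. Of the 36 members, 26 matched a promoter window by symbol. The Col4a1 window of 300 bases, at chr8:11312777-11313076 (GRCm38.p6, minus strand), is shown because both genes share part of it; capitals mark a CCAAT box (CCAAT) and a GC box (GGGCGG), both here on the opposite strand:
Col4a1 promoter: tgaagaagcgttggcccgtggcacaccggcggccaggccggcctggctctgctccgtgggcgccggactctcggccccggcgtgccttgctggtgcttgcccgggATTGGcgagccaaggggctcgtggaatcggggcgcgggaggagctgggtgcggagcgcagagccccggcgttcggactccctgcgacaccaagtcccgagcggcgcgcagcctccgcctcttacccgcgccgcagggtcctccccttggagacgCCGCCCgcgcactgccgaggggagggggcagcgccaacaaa
On either strand, GGGCGG stood in 35.7% and CCAAT in 37.4% of all 32851 promoter windows of this length. These matches describe letters and do not show that a factor binds. Col4a5 and Col4a6, another head-to-head pair among the members, have start sites 1343 bases apart. The start sites of Col4a3 and Col4a4 were not compared.

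The epithelial members did not move as a group in the small intestine. Of 8, 4 had a difference above 0 and 4 below, with a median of -0.08 and none past the threshold. The sign of this median was not stable, with -0.30 without KO small intestine replicate 2 and 0.20 without KO small intestine replicate 3. Both KO arrays lay above both WT arrays for Itga6 and Lamb3, and below both for Itga2, Itga3 and Lama3, where 32.7% of all genes were below without overlap. Itga6 had levels of 4.66 and 4.36 in KO small intestine, against 4.16 and 4.14 in WT small intestine, a difference of 0.36 (SE 0.19, limma adjusted p = 0.254). Itgb4, its partner in hemidesmosomes, had 3.24 and 3.04 in KO, against 2.85 and 3.32 in WT. The Itgb4 groups overlapped, and the interval of the difference was -0.54 to 0.66 (95%).

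The epithelial laminin chains Lamb3 and Lama3 lay on opposite sides of 0 in KO small intestine. Lamb3, the beta chain, had -1.09 and 0.61 in KO, against -1.86 and -1.54 in WT, a difference of 1.46 (SE 0.50, limma adjusted p = 0.102). Without KO replicate 2 that difference was 2.30 (adjusted p = 0.0109), and without KO replicate 3 it was 0.61. Lamb3 passed in 1 of 16 other settings (adjusted p 0.0109 to 0.257). Lama3, the alpha chain, had 0.93 and -0.10 in KO, against 1.10 and 1.89 in WT, a difference of -1.08 (SE 0.43, adjusted p = 0.146), and was singled out here after its values were seen.

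Itga2, the alpha chain of a collagen receptor of epithelium, is given for its known complex with claudin-7 in mouse intestine, outside the rule for named genes and after its values were seen. It had levels of -3.29 and -3.57 in KO small intestine, against -2.97 and -2.60 in WT small intestine. The difference was -0.64 (SE 0.24, limma adjusted p = 0.123), with both KO arrays lower. In large intestine it had -2.57 and -2.49 in KO, against -2.48 and -2.88 in WT, and the groups overlapped.

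**Figure D2:**
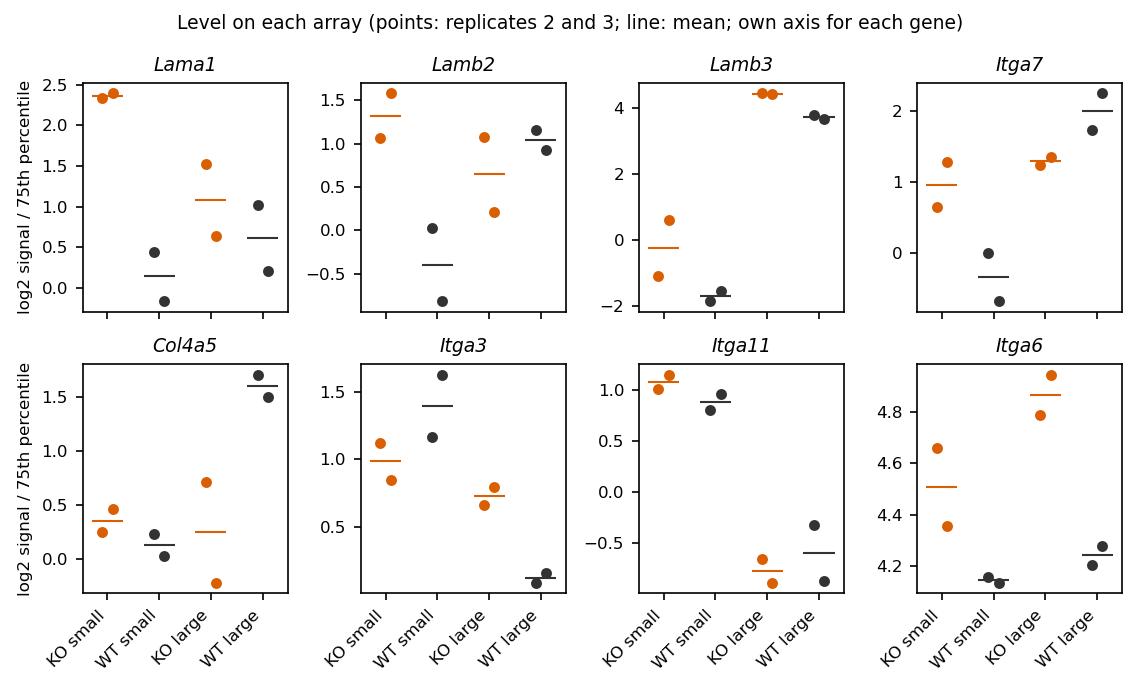
Level of 8 members on every array (points, replicates 2 and 3 of each group) with the mean of each group (line), as log2 signal relative to the array's 75th percentile, on a separate axis for each gene. Lama1 and Lamb2 are high in KO small intestine against WT small intestine, Lamb3 and Itga11 differ between the segments, and for Itga6 the KO points lie above the WT points in both segments.

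Among the members of both kinds, 9 of 12 tested had a difference above 0 in small intestine, with a median of 0.72. Besides Lama1 and Lamb2 these included Lama5 and Lamc1, chains of the laminin beneath intestinal epithelium, the proteoglycan Agrn and the integrin chains Itgb1 and Itgav. Itgb1, the beta chain shared by most integrins of the gut, had levels of 2.80 and 3.12 in KO small intestine, against 2.41 and 2.33 in WT small intestine. Itgav, the alpha chain that binds the RGD motif of vitronectin and fibronectin, had 0.40 and 0.35 in KO, against -0.43 and -0.44 in WT. For both genes the KO arrays lay above the WT arrays, and neither passed (limma adjusted p = 0.0892 for Itgb1 and 0.0579 for Itgav).

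The Itgb1 probe lies at chr8:131250081-131255976 (mm9, plus strand, a span longer than its 60 bases). It is shown because it holds the codons for the pair of NPxY motifs of the cytoplasmic tail, where talin and kindlin are known to bind; capitals mark the 2 runs that encode the motif, found by its codons in the probe's open frame:
Itgb1 probe: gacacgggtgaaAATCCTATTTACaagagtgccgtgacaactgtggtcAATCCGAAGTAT

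The minor collagen IV chains had smaller differences in small intestine. Col4a4 had levels of -3.74 on both KO small intestine arrays, against -3.27 and -3.83 on the WT ones. Col4a5 had 0.26 and 0.46 in KO, against 0.23 and 0.03 in WT, and Col4a6 had 0.51 and 1.79 in KO, against 0.17 and 0.87 in WT. None of the 3 passed, and only Col4a5 had groups that did not overlap, with KO replicate 2 and WT replicate 2 nearly level. Col4a5 and Col4a6 are X-linked, and the array with the high Col4a6 value, KO replicate 3, is also the KO small intestine array with the high Xist value. The part of Xist status in this result was not tested.

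Markers of other cell types moved with the wall-type members in small intestine. Over all genes, 6.38% passed higher there, 3.51% passed lower and 42.8% were above 0. The smooth muscle list was above 0 for 10 of 10 genes (median difference 1.35, 1 passed higher), and its summed level was 669.7 and 739 times the 75th percentile in KO small intestine, against 439 and 252 in WT small intestine. The fibroblast list was above 0 for 8 of 8 (median 1.0, 4 passed), with sums of 485 and 501 in KO, against 303 and 242 in WT. WT small intestine replicate 3 had the lowest sum of all 8 arrays for both lists, and also the lowest median of the wall-type members. Enteric neuron (median 1.97, 5 of 7 passed), enteric glia (1.92, 3 of 4), mesothelium (1.96, 3 of 4) and macrophage genes (0.98, 3 of 5) were higher too. Endothelial genes were above 0 for 8 of 8 with a median of 0.39 and none passed, and skeletal muscle genes for 4 of 5 with a median of 1.81 and none passed. Epithelial genes had a median of -0.29, with 1 of 10 passed higher and 2 lower, and sums of 495 and 414 in KO, against 382 and 451 in WT. Liver genes had a median of -1.17 (none of 3 tested passed) and pancreas genes of 0.61 (1 of 4 passed higher). The part of these cell types in the members' values was not tested.

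**Figure D3:**
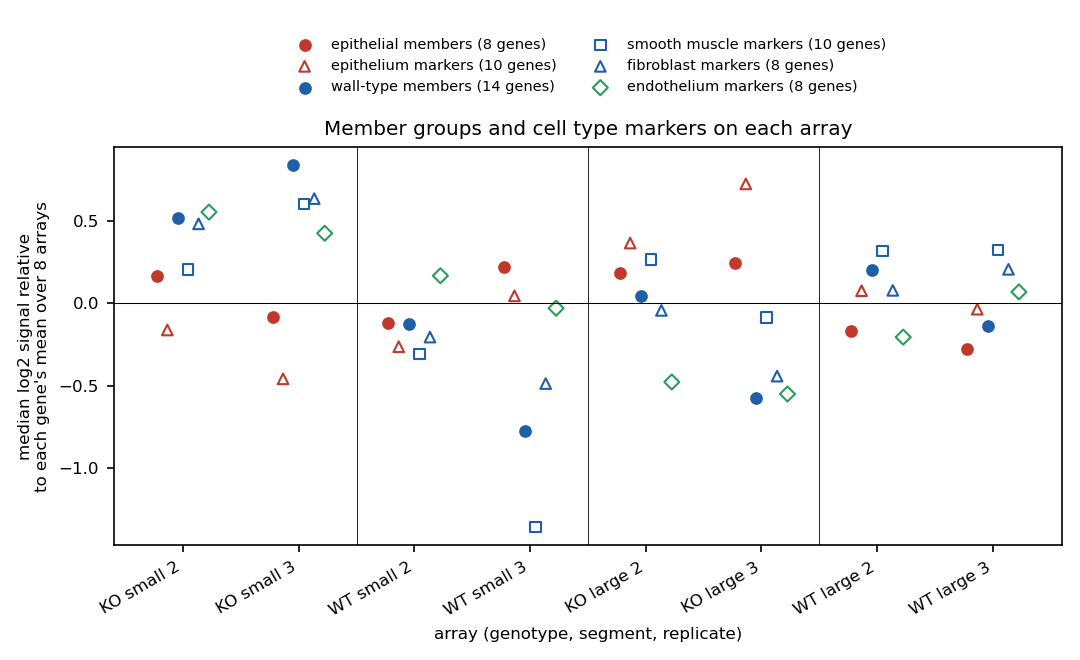
Median level on each array of the epithelial and wall-type members (filled circles) and of 4 marker lists (open symbols), each gene taken relative to its own mean over the 8 arrays (log2). Wall-type members lie at 0.52 and 0.84 in KO small intestine, against -0.13 and -0.77 in WT small intestine, and the smooth muscle and fibroblast markers are ordered in the same way.

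In the large intestine no member passed, against 0.308% of all genes, and 4 of 34 had an unadjusted p under 0.05, against 13.3% of all genes. All 8 epithelial members had higher means in KO large intestine, with a median difference of 0.53 and a range of 0.15 (Itga2) to 0.72 (Lamb3). For 6 of them both KO arrays lay above both WT arrays, where 27.6% of all genes did so. Of the wall-type members 1 of 14 had a difference above 0 (Itga5, 0.11), where 49.9% of all genes did, and the median was -0.29. This direction rested on KO large intestine replicate 3: without it 8 of 14 were above 0 and the median was 0.01, and without KO large intestine replicate 2 it was 0 of 14 and -0.63. Leaving out WT large intestine replicate 2 moved the median to -0.09, and leaving out WT large intestine replicate 3 to -0.44. For the epithelial members the median was 0.33, with 6 of 8 above 0, without WT large intestine replicate 3.

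Itga6 had levels of 4.79 and 4.94 in KO large intestine, against 4.20 and 4.28 in WT large intestine, a difference of 0.62 (SE 0.19, limma adjusted p = 0.277). Itgb4 had 3.21 and 3.56 in KO, against 3.03 and 2.73 in WT, a difference of 0.50 (SE 0.25, adjusted p = 0.440). Lamb3 had 4.44 and 4.43 in KO, against 3.79 and 3.65 in WT, a difference of 0.72 (SE 0.50, adjusted p = 0.561). In each of these genes of the hemidesmosome and its laminin the KO arrays were above the WT arrays. The epithelial marker list was likewise above 0 for 10 of 10 genes, with a median of 0.37 and sums of 561 and 676 in KO large intestine, against 458 and 452 in WT large intestine. Its part in these values was not tested.

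Col4a5 had the largest difference of any member in large intestine. Its levels were 0.72 and -0.21 in KO, against 1.70 and 1.50 in WT, a difference of -1.35 (SE 0.32, 95% interval -2.11 to -0.59, limma adjusted p = 0.186). Both KO arrays were lower, the more so KO replicate 3. Col4a5 is X-linked, and KO replicate 3 is also the KO large intestine array with the high Xist value. The part of Xist status in this difference was not tested. The Col4a6 probe that stands for its gene gave 1.61 and 1.38 in KO, against 0.62 and 1.14 in WT. Lama1 (1.53 and 0.64 in KO, against 1.02 and 0.21 in WT) and Lamb2 (1.08 and 0.21 in KO, against 1.16 and 0.93 in WT) overlapped between the genotypes. Smooth muscle markers were above 0 for 2 of 10 genes and fibroblast markers for 1 of 8, with medians of -0.26 and -0.35.

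The difference between the segments was tested as the KO effect in large minus that in small intestine. With its sign kept, the KO difference was lower in large intestine for 26 of 34 members, where 57.1% of all genes had a higher one. The median was -1.16 over the members and 0.14 over all genes. A lower value is not always a weaker one: Col4a5 had 0.23 in small and -1.35 in large intestine. No member passed this test in limma, against 0.139% of all genes, and 18 of 34 had an unadjusted p under 0.05, against 25.8%. The lowest adjusted p was 0.0999. All 14 wall-type members had a negative value (-2.15 for Itga8 to -0.37 for Itga11), and 7 of 8 epithelial members a positive one, with Lamb3 as the exception. In all, 18 members were above 0 in small and below 0 in large intestine, 9 were above 0 in both, 5 were below 0 in small and above in large, and 2 were below 0 in both. For Lama1 the difference between segments was -1.75 (SE 0.57, limma adjusted p = 0.129).

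**Figure D4:**
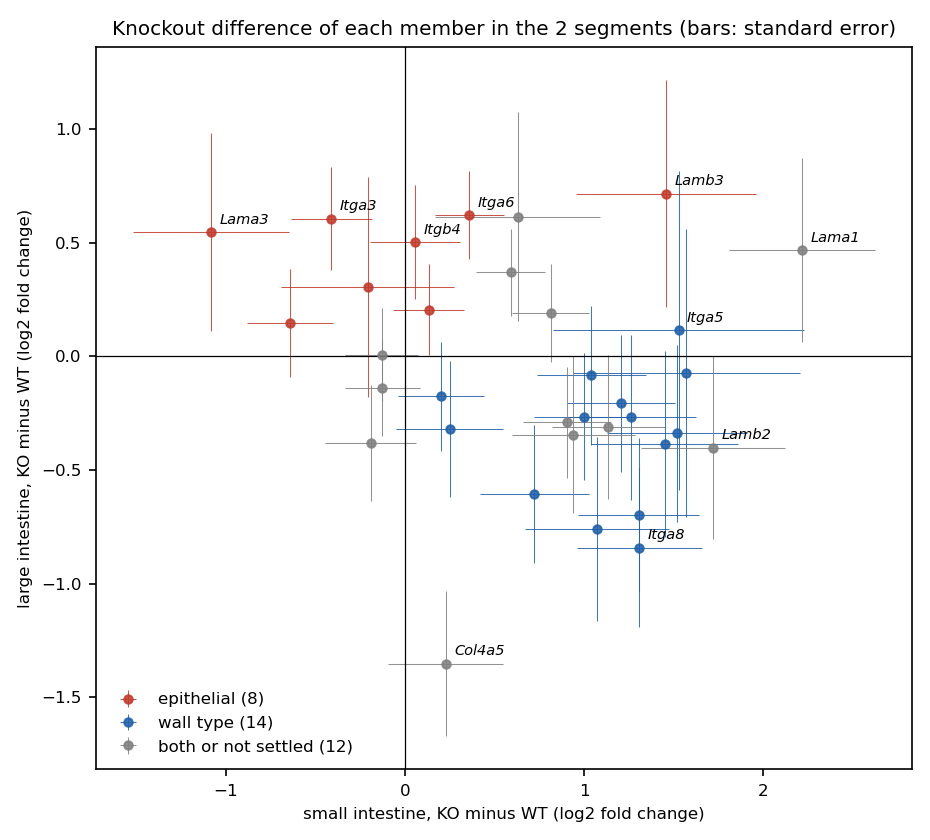
KO minus WT difference (log2) of each of the 34 tested members in small intestine (horizontal axis) and large intestine (vertical axis), with standard errors as bars and colours for the member groups. Wall-type members lie to the right and almost all below 0 on the vertical axis, and epithelial members all lie above 0 on it.

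Over both segments together, with segment as a term in the fit, no member passed, against 0.651% of all genes. An unadjusted p under 0.05 was reached by 5 of 34 (Lama1, Itgb1, Itga6, Lamb3 and Itgav), against 15.2% of all genes. Itgb1 and Itga6 were the members with all 4 KO arrays above all 4 WT arrays, where 2.12% of all genes were so ordered. Their values were 0.48 (SE 0.14) for Itgb1 and 0.49 (SE 0.15) for Itga6, both with a limma adjusted p of 0.181.

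In WT pups the large intestine was compared with the small intestine to see how the members are placed along the normal gut. Lamb3 was 42.8-fold higher in large intestine, the biggest difference of any member, and the muscle laminin receptor chain Itga7 was 5.07-fold higher. Col4a5 and Lamb2 were higher as well, while Itga11, a receptor chain for fibrillar collagen in fibroblasts, and Itga3, an epithelial laminin receptor chain, were lower. Thus 4 of 34 members passed higher and 2 lower, where 9.93% of all genes passed higher and 9.92% lower. This comparison shares its WT arrays with the KO comparisons, so the values are given side by side and no more.

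Lamb3 had levels of 3.79 and 3.65 in WT large intestine, against -1.86 and -1.54 in WT small intestine, a difference of 5.42 (SE 0.50, limma adjusted p = 0.00148). It passed in all 16 other settings. In KO pups too the large intestine arrays, at 4.44 and 4.43, stood far above the small intestine arrays, at -1.09 and 0.61. Lama3, at 0.75 and 0.21 in WT large intestine, against 1.10 and 1.89 in WT small intestine, was not called. RefSeq places Lamb3 start sites at 193301994 and 193302243, each with its own window. Neither window held the GC box, the CCAAT box, TATAAA (13.6% of all windows) or the AP-1 letters TGANTCA (7.8%) on either strand. The window of the first start site, 300 bases at chr1:193301744-193302043 (GRCm38.p6, plus strand), is shown for this difference:
Lamb3 promoter: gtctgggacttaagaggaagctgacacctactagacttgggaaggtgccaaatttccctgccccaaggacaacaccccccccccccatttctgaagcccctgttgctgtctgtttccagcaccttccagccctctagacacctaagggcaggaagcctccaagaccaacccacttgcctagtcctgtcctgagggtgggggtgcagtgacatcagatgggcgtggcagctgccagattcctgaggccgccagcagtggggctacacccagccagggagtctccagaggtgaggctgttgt

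Itga7 had levels of 1.74 and 2.25 in WT large intestine, against 0.00 and -0.68 in WT small intestine (difference 2.34, SE 0.34, limma adjusted p = 0.00650). Col4a5 had 1.70 and 1.50 in WT large intestine, against 0.23 and 0.03 in WT small intestine (1.47, SE 0.32, adjusted p = 0.0244). Lamb2 had 1.16 and 0.93 in WT large intestine, against 0.02 and -0.82 in WT small intestine (1.44, SE 0.40, adjusted p = 0.0485). These genes did not overlap between the segments. Itga11 had -0.32 and -0.87 in WT large intestine, against 0.80 and 0.96 in WT small intestine (-1.47, SE 0.24, adjusted p = 0.00975). Itga3 had 0.09 and 0.16 in WT large intestine, against 1.16 and 1.63 in WT small intestine (-1.27, SE 0.23, adjusted p = 0.0134).

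Leaving out a WT array ended several of these calls. Col4a5 was not called without any of the 4 WT arrays in turn (adjusted p 0.0584 to 0.131), Itga7 without WT large intestine replicate 3 (0.0553), Itga11 without WT large intestine replicate 3 or WT small intestine replicate 3, and Itga3 without either WT large intestine array or WT small intestine replicate 3. Lamb2 was called in 9 of 16 settings, and not without either KO small intestine array, either WT large intestine array or WT small intestine replicate 3. Among the wall-type members 12 of 14 were above 0 with a median of 0.64, where 50.1% of all genes were above 0. That median was 0.14 (10 of 14 above 0) without WT small intestine replicate 3, 0.96 without WT small intestine replicate 2 and 0.41 without WT large intestine replicate 2. The smooth muscle markers were above 0 for 10 of 10 with a median of 1.25 and 4 passed higher, where 9.93% of all genes did. The part of the muscle markers in the wall-type values was not tested. The epithelial members had a median of -0.16, with 3 of 8 above 0, and its sign was not stable: it was 0.01 (4 of 8) without WT small intestine replicate 3 and -0.33 (2 of 8) without WT small intestine replicate 2.

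**Figure D5:**
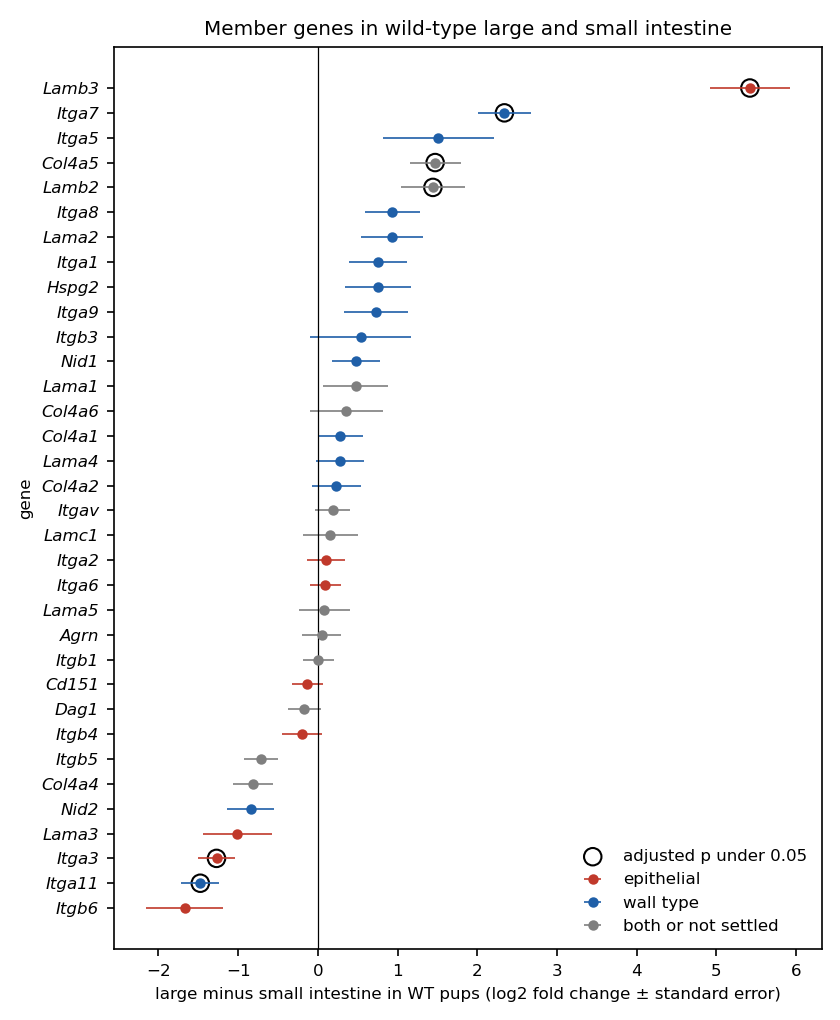
Large minus small intestine difference (log2) of each tested member in WT pups, with its standard error as a bar and black rings around the 6 members past the threshold. Lamb3 stands apart at 5.42, and the differences of the other members run from -1.67 (Itgb6) to 2.34 (Itga7).

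Other genes of the pathway were counted in 5 lists. Over all genes 6.38% passed higher in KO small intestine and 42.8% were above 0, so 1 or 2 calls do not set a list this short apart. Among 14 focal adhesion genes, which join integrins to actin, 2 passed higher in KO small intestine, the kindlin Fermt2 (2.72-fold, adjusted p = 0.0417) and zyxin, Zyx (2.53-fold, adjusted p = 0.0392), and the median difference was 0.72. Of 12 further basement membrane and collagen IV assembly genes tested, all were above 0 with a median of 0.96, and 2 passed higher. Col18a1, which carries endostatin at its end, had levels of 5.71 and 5.32 in KO small intestine, against 3.82 and 3.18 in WT small intestine, and rose 4.04-fold (adjusted p = 0.0225). The collagen chaperone Serpinh1 rose 2.10-fold (adjusted p = 0.0477). Of 8 partners of dystroglycan 1 passed higher, sarcospan, Sspn (3.01-fold, adjusted p = 0.0455), with a median of 1.20, while Dag1 itself, the receptor, had 2.68 and 2.66 in KO, against 2.75 and 2.85 in WT.

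Of 7 hemidesmosome and tetraspanin partners the tetraspanin Cd9 passed higher (2.43-fold, limma adjusted p = 0.0406), where 6.38% of all genes did. The median of this list was 0.33. None of 8 integrin ligands outside the basement membrane passed, though all were above 0 with a median of 1.08. In KO large intestine no gene of these 5 lists passed, against 0.308% of all genes, with medians from -0.61 for the dystroglycan partners to 0.10 for the hemidesmosome list. Each of the calls of Cd9, Fermt2, Zyx, Serpinh1 and Sspn in small intestine was made in 6 or 7 of 16 other settings. Each was lost without KO small intestine replicate 3, WT small intestine replicate 3 or any large intestine array, Cd9 and Zyx also without WT small intestine replicate 2, and Sspn also without KO small intestine replicate 2. Col18a1 was called in 11 of 16, and not without either of those replicates 3 or either WT large intestine array.

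Itgb8 and Col4a3 were left untested. Itgb8 was well above background on 2 of 8 arrays and Col4a3 on 3 of 8, too few in any group, and their levels of -8.66 to -7.07 and -7.62 to -5.69 carry no order. Of the tested members 12 had more than 1 kept probe. Their probes gave the same direction for 11 of 12 in KO small intestine (not Itgb6), for 8 of 12 in KO large intestine (not Agrn, Col4a6, Itgb3 or Nid1) and for 10 of 12 between the WT segments (not Agrn or Itgav).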

How the data were processed

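Cy3-labelled total RNA was hybridised to 8 Agilent arrays (2 per group, groups from the titles). Per the file headers, the deposited scanner files hold spot intensity from Feature Extraction 10.7.3.1, background-subtracted within each array, with probe positions on mm9. The authors also deposited a normalized table of linear intensity (medians 158.06 to 160.06; r of at least 0.991 on the log2 scale with the same array's signal), made by steps that no source used here gives. R 3.3.0 is named in the submitters' processing notes.

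From the deposited intensity, each array's 75th percentile (over 59305 non-control spots) was subtracted on the log2 scale. Outlier-flagged spots (148 to 312 per array) were left out, and spots of a probe averaged. A probe stayed in if any group had it well above background on both its arrays, and the brightest kept probe stood for a gene. Names came from the file's accession (26056 probes), a current symbol (3184), an older symbol (930) or the file's name (2680), and 22831 probes had none. In R 4.3.3, limma 3.58.1 fitted 1 mean per group (4 residual degrees of freedom), and genotype plus segment for both segments together (5), with Benjamini-Hochberg adjustment over 20132 genes and a threshold of 0.05. The script was tested on simulated data. Replicates correlated at 0.980 to 0.991, and the median SE of a KO difference within a segment was 0.277.

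Named were members past the threshold in a KO comparison, then those with the smallest p over both segments up to 14, members past the threshold between WT segments, and up to 3 called genes per pathway list. The members, their groups and the lists were chosen with earlier results of these data known. Promoters are RefSeq's (GRCm38.p6). Protein sequences were not used here. Results for some further genes of the pathway are not reported here. Alternatives were normexp (offset 50), quantile normalization, the deposited table, other filters, probe means, only the groups compared, blocks, and each array left out.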

Additional observations from a re-analysis of the deposited data

How the results depend on the processing

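No result changed direction among called values. Of the counts of calls, 99 of the alternatives stayed within 1.5 times or at 0, and 59 moved. For the named genes each value is 1 gene in 1 comparison and 1 setting. Of these values 1095 kept their side of the threshold, 94 lost a call and 11 gained one. Those that kept their side include values called neither in the main fit nor in the alternative. Members called in small intestine (2) numbered 11 with normexp, 10 in the deposited table, 8 when probes had to be well above background on all arrays, 4 with probe means, 0 without a background filter, 0 with only the groups compared and 3 with the replicate block. With 1 array left out they numbered 0 to 6. The test between segments gave 0 to 2 members, the WT segments 1 to 9 (6 with all arrays), and KO in large intestine and over both segments 0 throughout. Over all genes, calls in small intestine (1991) were 486 without the filter, 1159 with the replicate block, 33 with only the groups compared and 70 to 3823 with 1 array left out. Calls in large intestine (62) were 19 without the filter, 32 with the all-array filter, 15 with the replicate block, 119 with only the groups compared and 0 to 86 with 1 array left out. The test between segments (28) gave 15 without the filter, 5 with the all-array filter and 1 to 938 with 1 array left out. Over both segments (131) it was 85 with normexp, 53 without the filter, 66 with the replicate block, 777 with genotype and number as a random block, and 1 to 58 with 1 array left out, and the WT segments (3997) gave 900 to 4983. The causes were not tested. The labels do not say what a replicate number marks. Deviations of same-numbered arrays correlated between genotypes at 0.107 in small and 0.00688 in large intestine. Between segments they correlated at 0.0562 in KO and 0.218 in WT. Over all 6 pairs of groups the range was 0.00688 to 0.262, above 0.1 in 4. Both KO arrays numbered 3 also shared high Xist and low Ddx3y. These values do not settle whether same-numbered arrays share a pup, and the arrays were not treated as paired in the main fits. Leaving an array out leaves its group with 1 sample, assumed to vary like the others. Signal near background limits Itgb8 and Col4a3.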

Other observations

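The 2 kept probes of Col4a6 gave different values, an observation made after the values were seen. The probe that stands for the gene had differences of 0.63 (KO minus WT, small intestine), 0.62 (KO minus WT, large intestine) and 0.36 (large minus small, WT). The other probe had 0.07, -1.75 and 2.07, beside 0.23, -1.35 and 1.47 for Col4a5, its head-to-head neighbour. With the mean of its probes Col4a6 was called between the WT segments (1.21, limma adjusted p = 0.0352). These values are given without an explanation.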
